A study of Homo sapiens with 8 samples.

Results

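Glucose transport and glycolysis were followed through 10 genes that carry glucose into the cell and down the glycolytic chain of the SH-SY5Y lines: SLC2A1, SLC2A3, HK1, HK2, PFKP, ALDOA, PGK1, ENO1, PKM and LDHA. They were taken from the deposited table by gene symbol alone, and all 10 were found among its 47591 genes. SH-SY5Y is an established human neuroblastoma line, grown here in high-glucose medium with serum. The G2 line came from CRISPR/Cas9 editing aimed at PRPF40B, a splicing factor gene, and was sequenced in 3 libraries. The SCR line carried a control guide (3 libraries), and the WT line was the unedited parental stock (2 libraries). The methods place G2 and SCR cells under puromycin and do not name WT cells among those treated, so that editing, drug selection and line history cannot be told apart in the comparisons with WT. The methods describe colonies from limiting dilution for the PRPF40B-edited lines and do not say whether the SCR line was made in this way. Whatever the founding cells of a line carried would be shared by all of its libraries. The replicates were labelled as biological, but no source used here says that they came from separate thaws or edits, and p-values measure the spread between these libraries. Polyadenylated RNA was sequenced, and values are given as normalized counts, the deposited read counts divided by a scaling factor for each library.

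Glycolysis splits glucose into pyruvate in the cytosol and yields ATP and NADH without oxygen. Transporters of the SLC2A family admit glucose, hexokinases trap it as glucose 6-phosphate, phosphofructokinase commits it to breakdown, and lactate dehydrogenase regenerates NAD from pyruvate. Several of these genes are known targets of hypoxia-inducible factors and of MYC, and neuroblastoma cells, like many tumour cells, are known to convert much of their glucose to lactate.

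The targeted gene was checked first. PRPF40B was read at 840, 841 and 918 normalized counts in G2, at 1686, 1672 and 1669 in SCR and at 1972 and 1668 in WT. All 3 G2 libraries lay below all 5 control libraries (exact permutation test, two-sided p = 0.018, the smallest that the 56 possible groupings allow). The libraries held 59804395 to 81080747 recovered counts. Ribosomal RNA genes took 4.75% to 4.96% of the counts in WT and 0.38% to 0.59% in the other libraries. Of 10 markers of noradrenergic neuroblastoma cells, 9 averaged 100 normalized counts or more and TH, at 0 to 26.5, did not. The markers summed to 95109 to 103283 in G2, 187691 to 199964 in SCR and 211817 to 227227 in WT. In each G2 comparison 9 of the 10 fell and 1, GATA3, rose. The 8 fibroblast and mesenchymal markers summed to 89151 to 90103 in G2, 24687 to 25238 in SCR and 25256 to 26930 in WT. In G2, 7 of the 8 rose relative to SCR and 6 relative to WT, and 0 fell. The control sums were mostly THY1, which averaged 17501 in SCR and 20028 in WT, and they hide differences between those lines. In SCR relative to WT 4 of the 8 rose and 2 fell, and DCN averaged 37183 in G2, 1051 in SCR and 166 in WT. The summed leukocyte list ran from 666 to 738 in G2 against 61.9 to 133 in the controls, with nearly all of it in G2 from CD68, and CD3E was at 0. The summed Schwann cell list (170 to 267 in G2, 387 to 594 in SCR and 428 to 463 in WT, with SOX10 at 0) and the epithelial list (116 to 155 over all libraries, with KRT5 and KRT14 at 0) were low. The part of these marker shifts in the results below was not tested, and fewer cells of a type cannot be told apart from less RNA per cell in bulk samples.

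SLC2A1, the basal glucose transporter GLUT1, separated G2 from both control lines by more than any other of the 10 genes, whereas the enzymes moved by less and did not move together. PKM was lowest in SCR, LDHA was highest in WT, and PFKP stepped up from WT through SCR to G2. Of the 9 genes that could be tested, 3 rose and 3 fell in G2 relative to SCR, with a median log2 fold change of 0.06 against -0.01 over all 18947 genes tested. Across all genes 25.7% rose and 23.4% fell in this comparison (limma, Benjamini-Hochberg adjusted p of at most 0.05). In G2 relative to WT, 1 rose and 6 fell, with a median of -0.28 against 0.00 over all genes, of which 27.2% rose and 25.4% fell. In SCR relative to WT, 2 rose and 4 fell, with a median of -0.07 against 0.01 over all genes, of which 17.0% rose and 18.3% fell. The comparisons share libraries. Both G2 comparisons use the same G2 libraries, both WT comparisons the same WT libraries, and both SCR comparisons the same SCR libraries. The 1200 most abundant genes, those averaging 10000 normalized counts or more, had medians of -0.01, -0.27 and -0.26 in the 3 comparisons, and 5 of the 9 measured genes (ALDOA, PGK1, ENO1, PKM and LDHA) belong to this abundant class.

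**Figure D1:**
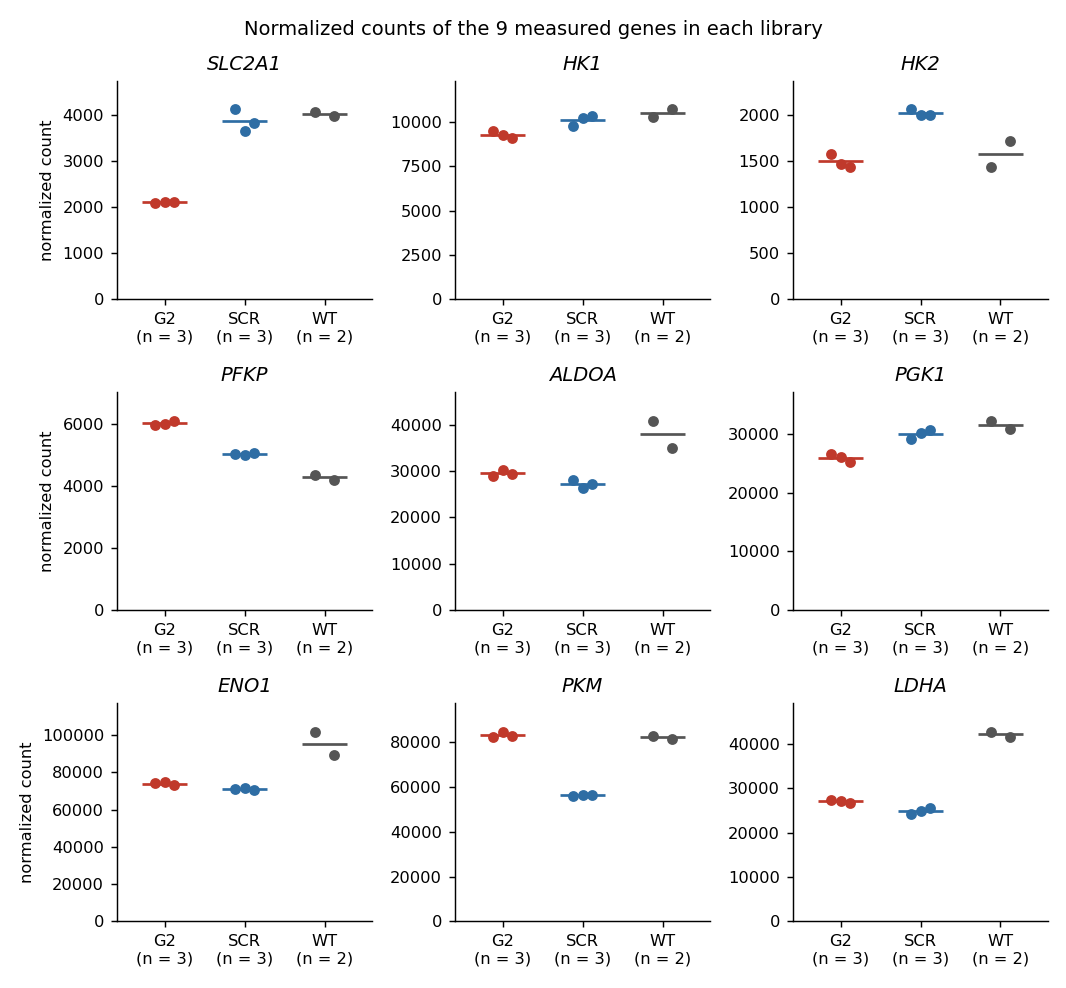
Normalized counts (vertical axes, starting at 0) of the 9 measured genes in each library of the G2, SCR and WT lines, with a point for each library and a bar at the line mean. SLC2A1 is low in the 3 G2 libraries, PKM in the 3 SCR libraries, and LDHA is high in the 2 WT libraries.

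Promoter windows of 3 genes are shown because they had 3 different patterns across the lines: SLC2A1, low in G2, PKM, low in SCR, and LDHA, high in WT. Each runs from 250 bases before to 50 bases after the start of transcription, 5′ to 3′ on the strand of the gene, from RefSeq on GRCh38.p14. The SLC2A1 window lies at chr1:42958819-42959118 on the minus strand, the PKM window at chr15:72231141-72231440 on the minus strand and the LDHA window at chr11:18394313-18394612 on the plus strand. Capitals mark the cores of the hypoxia response element, ACGTG or GCGTG, and the E-box CACGTG, a motif bound by MYC and by the glucose-responsive factor MLXIPL with its partner, on either strand. An E-box contains ACGTG on both strands, so each E-box also gives 2 of the matches counted under ACGTG.
SLC2A1: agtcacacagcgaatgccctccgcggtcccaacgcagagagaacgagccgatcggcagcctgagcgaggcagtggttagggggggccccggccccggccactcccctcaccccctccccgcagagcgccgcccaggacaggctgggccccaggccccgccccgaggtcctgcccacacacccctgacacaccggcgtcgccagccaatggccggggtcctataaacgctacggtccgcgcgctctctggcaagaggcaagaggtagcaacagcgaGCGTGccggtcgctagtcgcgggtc
PKM: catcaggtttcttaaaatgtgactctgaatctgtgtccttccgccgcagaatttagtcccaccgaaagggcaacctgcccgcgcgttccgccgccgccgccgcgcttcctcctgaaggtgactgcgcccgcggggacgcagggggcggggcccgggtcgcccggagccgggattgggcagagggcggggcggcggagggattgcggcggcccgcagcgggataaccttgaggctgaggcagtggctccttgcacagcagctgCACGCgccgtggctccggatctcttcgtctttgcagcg
LDHA: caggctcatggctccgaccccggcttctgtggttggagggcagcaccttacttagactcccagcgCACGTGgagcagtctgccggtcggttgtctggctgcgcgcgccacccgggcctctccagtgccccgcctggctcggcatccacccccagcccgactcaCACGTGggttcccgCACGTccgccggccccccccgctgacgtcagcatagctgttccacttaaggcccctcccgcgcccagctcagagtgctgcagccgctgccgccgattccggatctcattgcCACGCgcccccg

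The LDHA window held 2 E-boxes, 5 matches of ACGTG and 1 of GCGTG, whereas the SLC2A1 and PKM windows held 1 GCGTG each and no ACGTG. Windows of 9 of the 10 genes were found. Among the others, PGK1 held 3 ACGTG and 1 GCGTG, HK2 held 2 and 1, ENO1 held 2 GCGTG, ALDOA held 1 ACGTG, and HK1 held 1 GCGTG. The PFKP window held none, but the transcription start it was built on lay 422 bases from that of the main annotated transcript, and for HK1 the distance was 217 bases. E-boxes occurred in 7.26% of all 35116 human promoter windows of this length, ACGTG in 21.4%, GCGTG in 36.5%, and either core in 48.4%. These matches describe letters in a window and say nothing of binding.

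Glucose entry came first. SLC2A1 (chr1:42925353-42958896, hg38) was read at 2090, 2109 and 2122 normalized counts in G2. The SCR libraries gave 4125, 3651 and 3823, and the WT libraries gave 4081 and 3980. The G2 libraries lay close together and far below every control library, while SCR and WT overlapped. SLC2A1 fell 1.83-fold in G2 relative to SCR (log2 fold change -0.87, 95% interval -1.0 to -0.74, adjusted p = 1.7e-07) and 1.91-fold relative to WT (-0.94, -1.08 to -0.79, adjusted p = 2.7e-07). SCR and WT gave 3866 ± 240 (SD, n = 3) and 4031 ± 71.4 (SD, n = 2), a log2 difference of -0.06 (-0.21 to 0.08, adjusted p = 0.51). Taking a fold of at least 1.5 with an unadjusted p of at most 0.05 as differential expression, SLC2A1 was the only gene of the 9 that met it in G2 relative to SCR, where 26.9% of all genes did. In G2 relative to WT it was 1 of 2, with LDHA, where 29.9% of all genes did. In SCR relative to WT only LDHA met it, where 16.3% of all genes did.

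The neuronal glucose transporter gene SLC2A3, which encodes GLUT3, was listed at 0 in all 8 libraries, as was its near copy SLC2A14. A count of 0 allows up to 3 fragments, or 6.80 to 11.17 normalized counts depending on the library, for counting error only. How reads matching both genes were treated is not given in the sources used here, and their absence from both rows cannot be told apart from a lack of expression. No fold change or test was made.

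Other transporters of the family varied. Of 8 other SLC2A genes, 6 were tested. In G2, 1 rose and 3 fell relative to SCR (25.7% and 23.4% of all genes) and 1 rose and 2 fell relative to WT (27.2% and 25.4%). In SCR relative to WT 0 passed (17.0% and 18.3% of all genes). SLC2A6, a lysosomal hexose transporter, averaged 494 in G2, 764 in SCR and 822 in WT, and fell in both G2 comparisons (log2 fold changes -0.63 and -0.73, adjusted p = 0.0016 and 0.0012). SLC2A8, an intracellular transporter, fell only relative to SCR (-0.26, adjusted p = 0.031), a call that was lost when any single G2 or SCR library was left out. SLC2A13, which carries myo-inositol, averaged 206, 204 and 205. These values are normalized counts and are not corrected for gene length.

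Hexokinases phosphorylate glucose on entry. HK1 (chr10:69270000-69401882), the housekeeping form, was read at 9480, 9292 and 9088 normalized counts in G2, at 9781, 10229 and 10334 in SCR, and at 10294 and 10711 in WT. The G2 libraries were the 3 lowest, but by a small margin. HK1 fell in G2 relative to WT (log2 fold change -0.18, -0.30 to -0.06, adjusted p = 0.017), a difference of 0.01 when libraries were scaled to a same total, and was -0.12 (-0.23 to -0.02, adjusted p = 0.055) relative to SCR. The first call was lost without G2 replicate 2 (adjusted p = 0.05 after rounding) or G2 replicate 3 (adjusted p = 0.057) or with the number in the library name as a block (adjusted p = 0.14), and the second difference passed without either WT library (adjusted p = 0.017).

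HK2 (chr2:74834127-74893359), the inducible form found at the mitochondrial membrane, had a different order. It was read at 1580, 1467 and 1441 in G2, at 2061, 2006 and 2004 in SCR, and at 1434 and 1719 in WT. The SCR libraries were the 3 highest, and G2 and WT overlapped. HK2 fell in G2 relative to SCR (-0.44, -0.60 to -0.27, adjusted p = 4.9e-04) and rose in SCR relative to WT (0.37, 0.18 to 0.55, adjusted p = 0.0059), while G2 and WT differed by -0.07 (-0.26 to 0.12, adjusted p = 0.52), which turned to 0.06 without WT replicate 2. Per kilobase of transcript, HK2 made up 9.35% ± 0.26 of HK1 and HK2 together in G2, 11.4% ± 0.46 in SCR (SD, n = 3 each) and 8.75% ± 0.80 in WT (SD, n = 2). With the summed length of all exons these shares were 15.8%, 18.9% and 14.8%.

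Phosphofructokinase makes fructose 1,6-bisphosphate, the step that commits glucose to glycolysis. PFKP (chr10:3067520-3136805), the platelet form, was read at 5965, 6004 and 6119 normalized counts in G2, at 5051, 5012 and 5068 in SCR, and at 4373 and 4212 in WT. No libraries of different lines overlapped, and the order was WT, SCR, G2. PFKP rose in G2 relative to SCR (0.26, 0.15 to 0.36, adjusted p = 9.2e-04), in G2 relative to WT (0.49, 0.37 to 0.61, adjusted p = 1.3e-05) and in SCR relative to WT (0.23, 0.11 to 0.35, adjusted p = 0.0061). No other gene of the 9 rose in all 3 comparisons, and the last of these calls was lost with the number in the library name as a block (adjusted p = 0.057).

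The forms of the enzyme shifted against each other. PFKM, the muscle form, fell in G2 relative to SCR (-0.31, adjusted p = 1.4e-04), and PFKL, the liver form, rose (0.23, adjusted p = 0.0048). Relative to WT, PFKM fell by less (-0.14, adjusted p = 0.033), a call lost in most alternatives and a difference of 0.04 with a same total, and PFKL was at 0.13 (adjusted p = 0.11), while PFKM rose in SCR relative to WT (0.16, adjusted p = 0.026). Per kilobase, PFKP made up 34.0% to 34.8% of the 3 forms in G2, 28.4% to 28.6% in SCR and 26.4% to 26.6% in WT. PFKM made up 42.6% to 43.1%, 51.8% to 53.3% and 50.5% to 51.6%, and PFKL the rest, 22.7% ± 0.18 in G2, 19.2% ± 0.75 in SCR (SD, n = 3 each) and 22.5% ± 0.60 in WT (SD, n = 2). PFKM was therefore the most abundant form in every library, with PFKP second, and the PFKP share was higher in each G2 library than in any control library.

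**Figure D2:**
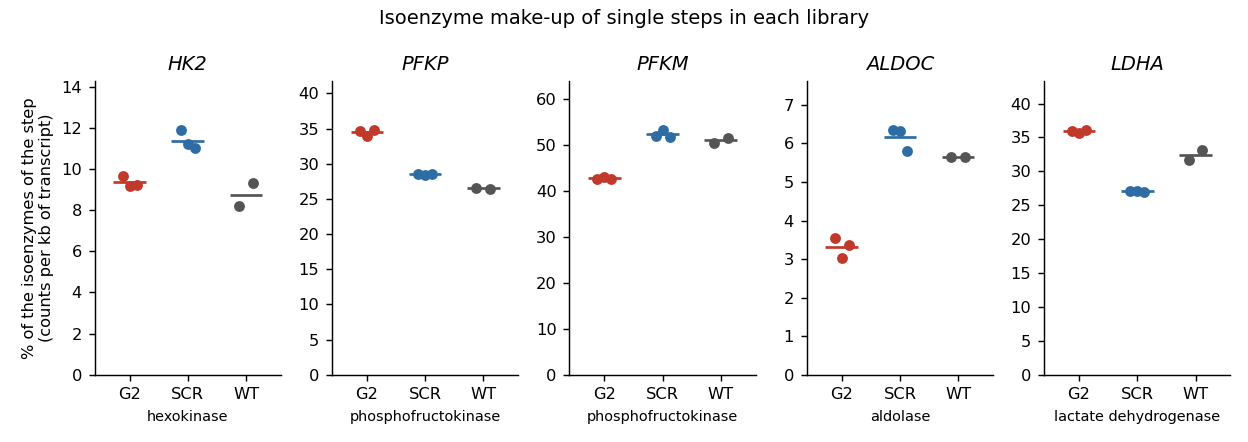
Share of chosen isoenzymes (vertical axes, percent of the counts per kilobase of all isoenzymes of that step, starting at 0) in each library of G2, SCR and WT, with points for libraries and bars at line means. In G2 the PFKP and LDHA shares are the highest and the PFKM and ALDOC shares the lowest, whereas the HK2 share is highest in SCR.

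Aldolase cleaves fructose 1,6-bisphosphate. ALDOA (chr16:30053134-30070420), listed in the table together with LOC112694756, was read at 28969, 30226 and 29426 normalized counts in G2, at 28135, 26382 and 27275 in SCR, and at 40865 and 34912 in WT. Both WT libraries lay above all others but stood far apart. ALDOA fell relative to WT in G2 (-0.35, -0.50 to -0.21, adjusted p = 8.4e-04) and in SCR (-0.47, -0.62 to -0.32, adjusted p = 2.6e-04). G2 and SCR differed by 0.12 (-0.02 to 0.25, adjusted p = 0.13), a difference that passed without either WT library (adjusted p = 0.016). ALDOC, the brain form, averaged 993 ± 60.4 in G2, 1754 ± 110 in SCR (SD, n = 3 each) and 2224 ± 254 in WT (SD, n = 2), and fell in both G2 comparisons (-0.82 and -1.16, adjusted p = 5.3e-06 and 7.2e-07). Its share of ALDOA and ALDOC per kilobase was 3.03% to 3.55% in G2, against 5.64% to 6.35% in the 5 control libraries.

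Phosphoglycerate kinase makes the first ATP of the pathway. PGK1 (chrX:78104246-78129296) was read at 26500, 26010 and 25262 normalized counts in G2, at 29157, 30175 and 30565 in SCR, and at 32229 and 30765 in WT. All G2 libraries lay below all controls. PGK1 fell in G2 relative to SCR (-0.21, -0.31 to -0.11, adjusted p = 0.0029) and relative to WT (-0.28, -0.40 to -0.17, adjusted p = 7.7e-04), and SCR and WT differed by -0.07 (-0.19 to 0.04, adjusted p = 0.32).

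Enolase makes phosphoenolpyruvate. ENO1 (chr1:8861000-8879092), the ubiquitous form, was read at 74102, 74728 and 73123 normalized counts in G2, at 71264, 71376 and 70398 in SCR, and at 101764 and 89022 in WT. Like ALDOA, it was highest in WT, with the wider spread there. ENO1 fell relative to WT in G2 (-0.36, -0.50 to -0.23, adjusted p = 3.2e-04) and in SCR (-0.42, -0.55 to -0.29, adjusted p = 2.6e-04), while G2 and SCR differed by 0.06 (-0.06 to 0.18, adjusted p = 0.39). These drops from WT stood beside medians of -0.27 and -0.26 for the 1200 abundant genes. ENO3, the muscle form, rose in both G2 comparisons (0.80 and 0.57, adjusted p = 8.1e-06 and 3.0e-04), and ENO2, the neuronal form, rose relative to SCR (0.27, adjusted p = 0.0010) and fell relative to WT (-0.35, adjusted p = 2.9e-04). Even so, ENO1 made up 91.9% to 93.5% of the 3 enolases per kilobase in every library.

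Pyruvate kinase makes pyruvate and ATP. PKM (chr15:72199029-72231822) was read at 82272, 84483 and 82433 normalized counts in G2, at 55841, 56089 and 56481 in SCR, and at 82785 and 81201 in WT. Here SCR was the line that stood apart, and G2 and WT overlapped. PKM rose 1.48-fold in G2 relative to SCR (0.57, 0.47 to 0.66, adjusted p = 5.0e-07) and fell 1.46-fold in SCR relative to WT (-0.55, -0.65 to -0.44, adjusted p = 8.5e-06), while G2 and WT differed by 0.02 (-0.09 to 0.13, adjusted p = 0.78). The alternative exons that tell PKM1 from PKM2, a choice made by splicing, are summed in this row and were not separated. The liver gene PKLR was at or near 0.

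Lactate dehydrogenase turns pyruvate into lactate. LDHA (chr11:18394559-18408425), the muscle-type subunit, was read at 27351, 27108 and 26642 normalized counts in G2, at 24095, 24913 and 25597 in SCR, and at 42685 and 41544 in WT. The WT libraries were far above the rest, and the G2 libraries lay slightly above the SCR libraries. LDHA fell 1.56-fold in G2 relative to WT (-0.64, -0.75 to -0.53, adjusted p = 7.8e-07) and 1.69-fold in SCR relative to WT (-0.76, -0.87 to -0.65, adjusted p = 1.1e-06). It rose in G2 relative to SCR by a small amount (0.12, 0.02 to 0.22, adjusted p = 0.047). That last call was lost when any single G2 or SCR library was left out (adjusted p = 0.052 to 0.16) and under scaling to a same total, where the difference was 0.03 (adjusted p = 0.58).

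LDHB, the heart-type subunit, fell in all 3 comparisons (-0.47 in G2 relative to SCR, -0.86 in G2 relative to WT and -0.39 in SCR relative to WT, adjusted p = 1.1e-05, 1.7e-07 and 3.8e-04). LDHA therefore made up 35.7% to 36.1% of both subunits per kilobase in G2, 26.9% to 27.1% in SCR and 31.7% to 33.2% in WT. The 3 lines did not overlap in this share, although the LDHA level itself was highest in WT. Of the other genes of lactate handling, BSG, the chaperone of the lactate carriers, rose in G2 relative to SCR (0.59, adjusted p = 6.0e-06). It also rose relative to WT (0.22, adjusted p = 0.016), a call lost without G2 replicate 3 or WT replicate 2, without a trend in the variance, and with the number in the library name as a block. The lactate carrier SLC16A1 averaged 1947, 2097 and 2292 in G2, SCR and WT and fell only relative to WT (-0.23, adjusted p = 0.032), a call lost without G2 replicate 2, G2 replicate 3 or WT replicate 2 and under 6 of the other alternatives. Of 7 genes in this list, 6 were tested. Relative to SCR 3 rose and 1 fell (25.7% and 23.4% of all genes), and relative to WT 2 rose and 2 fell (27.2% and 25.4%). The lactate carrier SLC16A3 rose in all 3 comparisons (1.29, 2.05 and 0.76, adjusted p = 2.5e-04, 1.4e-05 and 0.024). It averaged 130 in G2, 52.6 in SCR and 30.5 in WT, and its row reaches beyond the annotated gene. LDHD, low at 0 to 38.3 normalized counts, also rose relative to SCR.

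**Figure D3:**
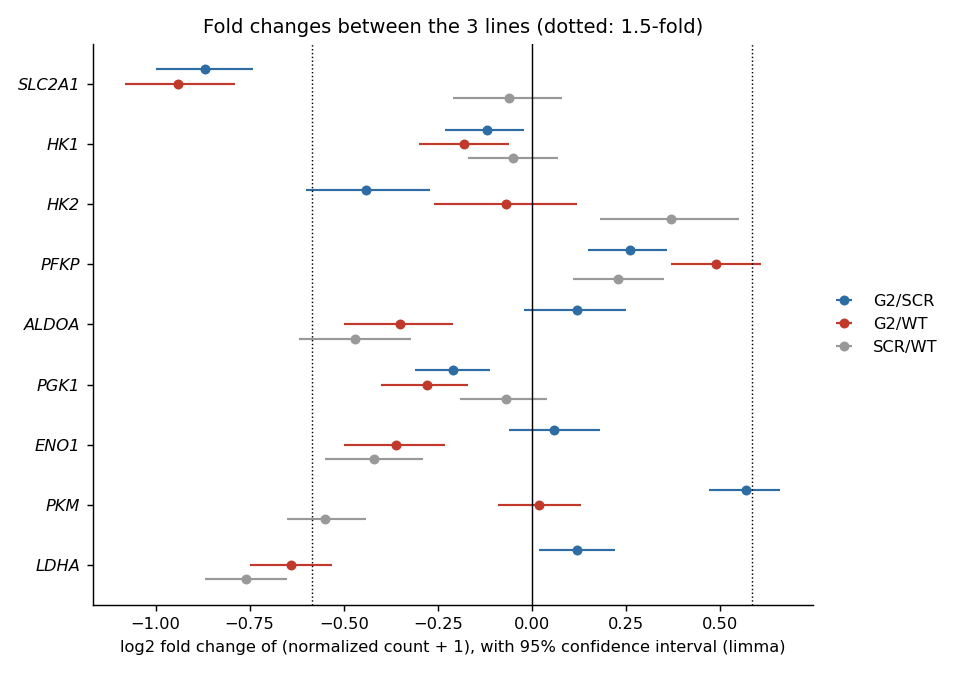
Log2 fold changes with 95% confidence intervals (limma, horizontal axis) of the 9 measured genes in G2 relative to SCR, G2 relative to WT and SCR relative to WT, with dotted lines at a fold of 1.5. SLC2A1 lies beyond the line in both G2 comparisons, and LDHA in both comparisons with WT.

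The levels of the 9 genes spanned a wide range. Per kilobase of the main annotated transcript, the order was ENO1, PKM, ALDOA, LDHA, PGK1, HK1, PFKP, SLC2A1 and HK2 in each of the 3 lines, with no overlap between neighbours within a line. In G2, ENO1 averaged 41541 ± 454 normalized counts per kilobase, PKM 36036 ± 535, SLC2A1 623 ± 4.83 and HK2 266 ± 13.1 (SD, n = 3 each). With the summed length of all exons of a gene in place of the main transcript, ALDOA moved above PKM in SCR and WT, PGK1 above LDHA in G2 and SCR, and SLC2A1 above PFKP in WT. Together the 9 genes took 0.396% ± 0.0036 of all counts in G2, 0.376% ± 0.0019 in SCR (SD, n = 3 each) and 0.417% ± 0.0022 in WT (SD, n = 2).

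Most of the enzymes between these genes were measured too. Of 21 other glycolytic genes, 16 were tested. In G2 relative to SCR 8 rose and 5 fell (25.7% and 23.4% of all genes), with a median of 0.25. Relative to WT, 4 rose and 7 fell (27.2% and 25.4%), with a median of -0.16. GPI, which turns glucose 6-phosphate into fructose 6-phosphate, fell in both G2 comparisons (-0.43 and -0.71, adjusted p = 6.2e-05 and 2.3e-06), as did PGAM2, the muscle phosphoglycerate mutase (-2.61 and -2.63, adjusted p = 2.7e-07 and 7.5e-07). PGAM2 was read at 75.3, 55.8 and 105 in G2 and at 446 to 508 in the controls. ADPGK, which phosphorylates glucose with ADP, rose in both (0.46 and 0.42, adjusted p = 1.6e-05 and 9.0e-05).

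The abundant enzymes TPI1, a triose phosphate isomerase, and GAPDH were, like ALDOA and ENO1, highest in WT. TPI1 averaged 30184 in G2, 29796 in SCR and 39399 in WT (G2 relative to WT -0.38, adjusted p = 1.8e-04). GAPDH averaged 262122, 277248 and 342334 (-0.38, adjusted p = 5.3e-04), though its row spans other genes on chromosome 12. In G2 relative to SCR these 2 genes differed by 0.02 and -0.08 (adjusted p = 0.80 and 0.29), the latter passing without either WT library. PGAM1 and BPGM, which move or place the phosphate of phosphoglycerate, rose relative to SCR (0.33 and 0.31, adjusted p = 0.0069 and 0.0015). Relative to WT, PGAM1 was at -0.18 (adjusted p = 0.13), between -0.38 without WT replicate 2, where it passed, and 0.01 without WT replicate 1, while BPGM rose (0.23, adjusted p = 0.017), a call lost without G2 replicate 1, G2 replicate 2 or WT replicate 2 or with the number in the library name as a block. PGAM4, a near copy of PGAM1, stood at 4.28% to 4.79% of the PGAM1 count in every library, so the rows may share reads.

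Regulators of the flux were tested as a list of 10. In G2 relative to SCR 1 rose and 5 fell (25.7% and 23.4% of all genes), with a median of -0.49. Relative to WT 4 rose and 2 fell (27.2% and 25.4%), with a median of 0.23. TXNIP, which limits glucose uptake by drawing SLC2A1 from the cell surface, was read at 1159, 1219 and 1133 normalized counts in G2, at 3729, 3685 and 3545 in SCR, and at 3081 and 2973 in WT. Its G2 libraries lay below all controls, and it fell in both comparisons (-1.64 and -1.37, adjusted p = 6.1e-10 and 8.0e-09). Its relative ARRDC4 fell as well (-1.69 and -1.01, adjusted p = 2.0e-06 and 3.4e-04). TIGAR, a bisphosphatase that lowers fructose 2,6-bisphosphate, fell relative to SCR (-0.77, adjusted p = 6.9e-06) and rose relative to WT (0.25, adjusted p = 0.036). The latter call was lost when G2 replicate 1, G2 replicate 2, SCR replicate 1, WT replicate 1 or WT replicate 2 was left out, with the 2 lines fitted alone and without a trend in the variance.

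**Figure D4:**
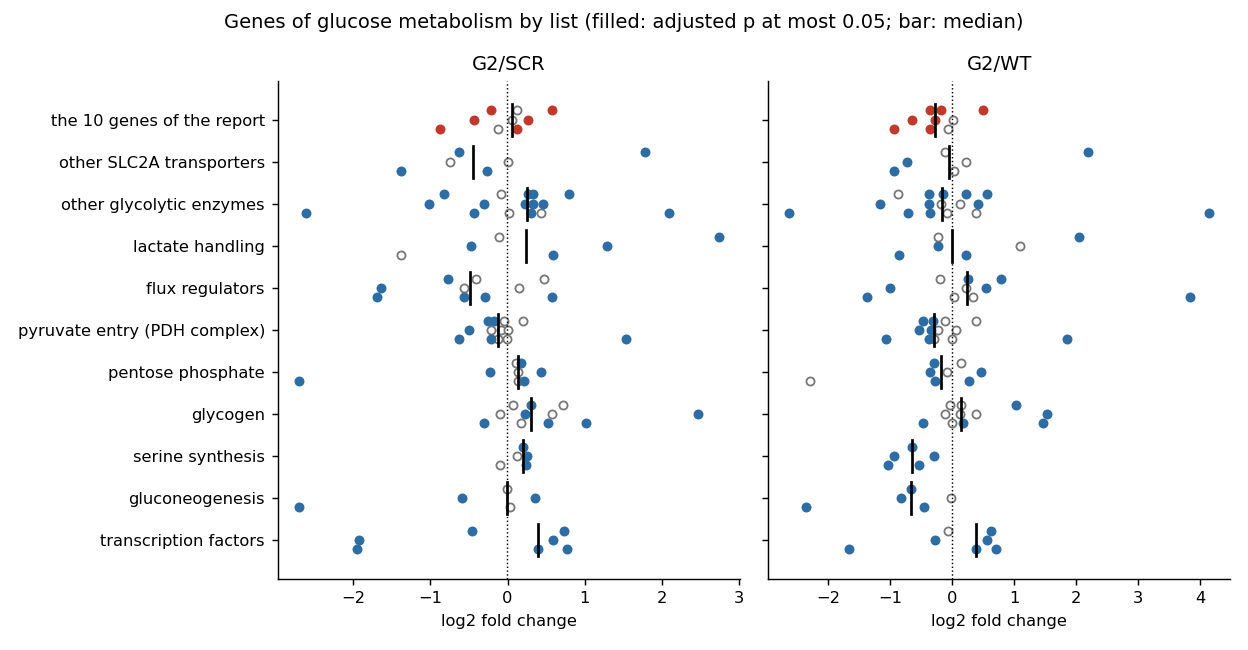
Log2 fold changes (horizontal axes) of every tested gene in 11 lists of glucose metabolism, for G2 relative to SCR and G2 relative to WT, with filled points for an adjusted p of at most 0.05, short bars at list medians and a dotted line at the median of all genes. Points of most lists fall on both sides of the line, whereas all 5 serine synthesis genes and all 5 tested gluconeogenesis genes lie below it relative to WT.

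Pyruvate leaves the pathway for mitochondria through its carrier and the pyruvate dehydrogenase complex. Of 13 genes of this entry, 1 rose and 5 fell in G2 relative to SCR (25.7% and 23.4% of all genes). Relative to WT 1 rose and 6 fell (27.2% and 25.4%). The gene that rose was PDP1, the phosphatase that activates pyruvate dehydrogenase, which was read at 7449 to 7739 in G2 and 1953 to 2741 in the controls (1.53 and 1.86, adjusted p = 2.3e-09 and 1.2e-09). The opposing kinases PDK1 and PDK2 fell relative to SCR (-0.63 and -0.50, adjusted p = 7.4e-04 and 4.1e-04) and were at -0.29 and -0.22 relative to WT (adjusted p = 0.078 and 0.068), both passing without WT replicate 2.

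Branches off the chain varied. Of all genes, 25.7% rose and 23.4% fell relative to SCR, and 27.2% and 25.4% relative to WT. Of 11 glycogen genes, 5 rose and 1 fell relative to SCR and 4 rose and 1 fell relative to WT. PYGL, a glycogen phosphorylase, was read at 1196 to 1324 in G2 and 206 to 489 in the controls (2.47 and 1.53, adjusted p = 3.6e-09 and 7.4e-07), and GBE1, the branching enzyme, rose too (1.02 and 1.03, adjusted p = 1.7e-06 and 4.0e-06). PGM2, a sugar phosphomutase, rose only relative to SCR (0.52, adjusted p = 2.1e-05), and was at 0.13 relative to WT (adjusted p = 0.12). Of 8 pentose phosphate genes, 3 rose and 2 fell relative to SCR and 2 rose and 3 fell relative to WT. TKT, a transketolase, rose relative to SCR (0.21, adjusted p = 0.010), a call lost without G2 replicate 3 and under scaling to a same total, and fell relative to WT (-0.36, adjusted p = 5.0e-04).

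The 5 genes that make serine and glycine from 3-phosphoglycerate followed LDHA in standing highest in WT. All 5 fell relative to WT in G2 and in SCR (25.4% and 18.3% of all genes), with medians of -0.64 and -0.89. In G2 relative to SCR 3 rose and 0 fell (25.7% and 23.4%). SHMT2, the mitochondrial hydroxymethyltransferase, averaged 9411 in G2, 8192 in SCR and 17986 in WT. PSAT1, an aminotransferase, averaged 5481, 4617 and 8546. Of 8 genes of gluconeogenesis, the reverse route, 5 were tested. Relative to SCR 1 rose and 2 fell (25.7% and 23.4% of all genes), and relative to WT 0 rose and 4 fell (27.2% and 25.4%). FBP1, which opposes phosphofructokinase, fell in both (-2.70 and -2.36, adjusted p = 7.5e-08 and 7.2e-07), as did the pyruvate carboxylase gene PC (-0.59 and -0.82, adjusted p = 3.4e-05 and 5.3e-06). PCK2, the mitochondrial phosphoenolpyruvate carboxykinase, rose relative to SCR (0.35, adjusted p = 0.0023) and fell relative to WT (-0.67, adjusted p = 3.7e-05).

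The transcription factors known for these genes did not move together. MYC averaged 2409 in G2, 9284 in SCR and 7586 in WT and fell in both G2 comparisons (-1.95 and -1.66, adjusted p = 1.4e-10 and 1.3e-09), whereas MYCN, its neuroblastoma relative, rose (0.77 and 0.70, adjusted p = 3.6e-04 and 0.0014). HIF1A rose in both (0.59 and 0.62, adjusted p = 1.5e-06 and 3.1e-06), and EPAS1, which encodes the related HIF2A, fell 3.80-fold relative to SCR (-1.93, adjusted p = 4.6e-10) and by less relative to WT (-0.27, adjusted p = 0.010), a call lost without WT replicate 2, under scaling to a same total with or without ribosomal RNA genes, and with the number in the library name as a block. The HIF partner ARNT rose (0.40 and 0.57, adjusted p = 2.2e-04 and 3.0e-05), as did SP1 (0.73 and 0.38, adjusted p = 5.1e-05 and 0.0099), the latter call lost without WT replicate 1. MAX, the partner of MYC, fell relative to SCR (-0.46, adjusted p = 1.8e-04) and was at -0.06 relative to WT (adjusted p = 0.56).

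Of 11 other hypoxia-responsive genes, 10 were tested. Relative to SCR 2 rose and 3 fell (25.7% and 23.4% of all genes), and relative to WT 4 rose and 2 fell (27.2% and 25.4%). The prolyl hydroxylases EGLN1, which marks HIF for destruction, and P4HA1, which acts on collagen, rose in both G2 comparisons (1.34 and 1.65, and 1.64 and 1.51, with adjusted p from 9.1e-10 to 2.1e-08). ADM, a peptide hormone gene, fell in both (-1.56 and -1.82, adjusted p = 2.6e-06 and 1.9e-06).

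SLC2A1 had the widest range of line means among the 9 genes, 0.94 on the log2 scale. Among 13056 genes averaging 100 counts or more, those most like it over the 8 libraries were GLDC, of glycine breakdown (Pearson r = 0.997), GRIN1, a glutamate receptor subunit (0.996), and RTL1, a retrotransposon-derived gene (0.996). As many as 602 genes had r above 0.95, and the libraries share their line, so these values only describe a common step between G2 and the controls.

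How the libraries were scaled set the sign of several small differences. When every library was brought to a same total, the median log2 fold change of all genes moved to -0.10 in G2 relative to SCR, 0.19 in G2 relative to WT and 0.28 in SCR relative to WT, and the share of calls that were higher went from 52.3% to 41.0%, from 51.8% to 69.7% and from 48.1% to 87.1%. Under this scaling ENO1 turned to -0.03 in G2 relative to SCR (adjusted p = 0.50), and HK1 to 0.01 and HK2 to 0.12 in G2 relative to WT (adjusted p = 0.92 and 0.37), where HK1 lost its call. In SCR relative to WT, SLC2A1 turned to 0.21, HK1 to 0.22 and PGK1 to 0.20, and all 3 then passed (adjusted p = 0.023, 0.012 and 0.0043), so that all 9 genes passed in that comparison. Measured against the shifted median of all genes, none of the differences that had changed sign lay farther than 0.18 from it. PGK1 lost its call in G2 relative to WT (-0.09, adjusted p = 0.11) and PKM gained it (0.20, adjusted p = 0.0016), while in G2 relative to SCR LDHA lost its call (0.03, adjusted p = 0.58) and HK1 gained it (-0.21, adjusted p = 0.0066). SLC2A1 in both G2 comparisons, PFKP in all 3, PKM in both comparisons with SCR, and LDHA, ALDOA and ENO1 relative to WT kept their direction and an adjusted p of at most 0.05. LDHA no longer reached a fold of 1.5 relative to WT, at -0.45 in G2 and -0.48 in SCR, whereas PFKP in G2 (0.68) and HK2 in SCR (0.64) did.

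**Figure D5:**
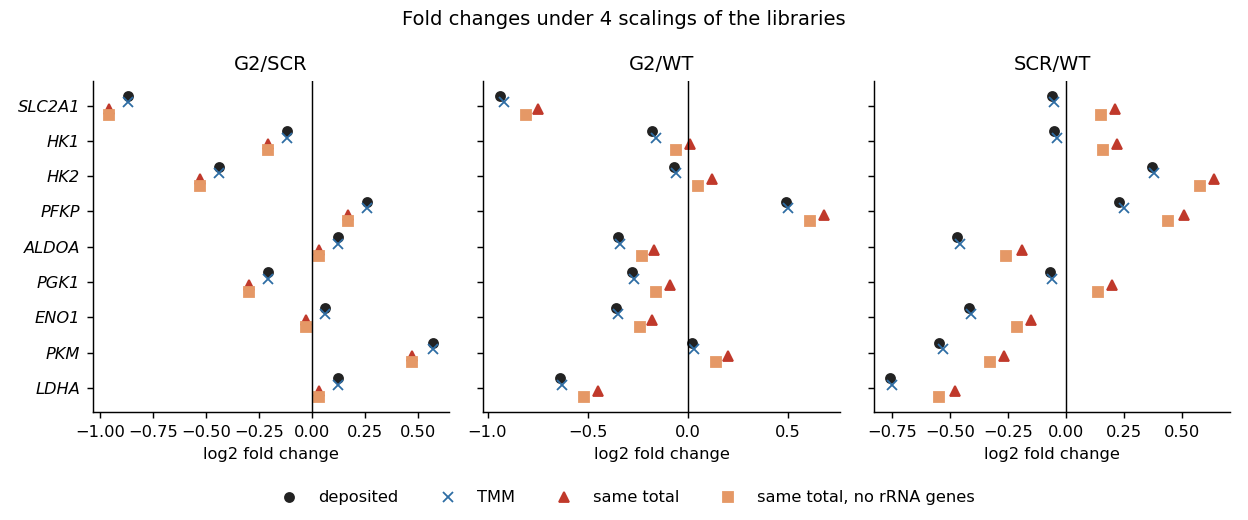
Log2 fold changes (horizontal axes) of the 9 measured genes in the 3 comparisons under 4 scalings: as deposited, by TMM, to a same total, and to a same total without ribosomal RNA genes. The comparisons with WT move to the right by about the shift in the median of all genes, and SLC2A1 in G2 stays left of 0 throughout.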

How the data were processed

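RNA of 3 G2, 3 SCR and 2 WT libraries was analysed from a table of normalized counts (signal) that the authors deposited with DESeq2 scaling, and per the labels and methods reads were checked with FastQC 0.11.2, aligned with STAR 2.7.5a to hg38 and counted with featureCounts of Subread 1.5.0 on FAST DB annotations. The strand and multi-mapping settings are not given in the sources used here. In 7 libraries low values were whole multiples of a step, and dividing by it gave whole counts for 100.0% of values (tolerance 0.001). Recovered totals were 59804395 to 81080747, and 67.1% to 71.5% of small counts were multiples of 3. Floors cover counting error only, whereas the confidence intervals come from limma and, like the p-values, measure the spread between these libraries. The deposited table held no fold changes or p-values of the authors' own comparisons.

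The 18947 genes averaging 10 normalized counts or more were tested as log2(value + 1) with limma 3.58.1 (trended, all 3 lines in 1 fit) in R 4.3.3, with Benjamini-Hochberg adjustment over all genes. Fold changes are on this log2 scale, which understates those of low genes. The test was also run on simulated counts with the same dispersion for every gene and known changes in G2 only. That setting is simpler than these data, so the run does not measure error rates here. As an alternative for G2 and SCR, edgeR 4.0.16 and DESeq2 1.42.0 on recovered counts called 5093 and 4973 genes differentially expressed, against 5088. Levels per kilobase used GENCODE transcript lengths.

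The 10 genes and all lists were chosen with earlier results of these data known. Named besides the 10 genes were, from the other transporters, glycolytic and lactate lists, genes averaging 100 or more, every tested factor, the 3 genes of smallest p in G2 relative to SCR in each other list, and the 3 genes most like SLC2A1. GATA3, TH, SOX10, KRT5, KRT14, PKLR, SLC16A3 and LDHD fall outside this rule and were chosen after seeing their values. They are not in the counts of other named genes under alternatives. The DE rule (fold 1.5, unadjusted p 0.05) followed the study's methods.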

Additional observations from a re-analysis of the deposited data

How the results depend on the processing

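Of the comparisons of the 9 genes under alternatives, 485 kept their direction and their side of the threshold. With the direction kept, 15 gained and 19 lost a call, and 12 changed sign, some of which also crossed the threshold. For other named genes these counts were 2018, 17, 63 and 22. Differentially expressed genes numbered 3088, 3633 and 1723 with a mean of at least 100, and 2951, 3176 and 1491 with a fold of at least 2, in G2/SCR, G2/WT and SCR/WT (5088, 5657 and 3097 in the report), by construction of those limits. With a fold of at least 2, 0 of the 9 genes passed in any comparison, and with a same total without ribosomal RNA genes 0 passed in SCR/WT, where LDHA had passed. LDHA fell short of the fold of 1.5 under both same-total scalings, at -0.45 and -0.52 in G2/WT and -0.48 and -0.55 in SCR/WT. The counts of 2 in G2/WT and, with a same total, 1 in SCR/WT were kept because PFKP (0.68 and 0.61) and HK2 (0.64) passed in its place.

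Sign changes of the 9 genes came mainly with scaling to a same total, and then without ribosomal RNA genes (added after seeing the data). ENO1 in G2/SCR was -0.03 under both, HK1 in G2/WT 0.01 under the first, and HK2 0.12 and 0.05. In SCR/WT, SLC2A1 was 0.21 and 0.15, HK1 0.22 and 0.16, and PGK1 0.20 and 0.14. HK2 in G2/WT ran from -0.20 to 0.06 over the libraries left out (0.06 without WT replicate 2). In G2/SCR, SLC2A13 was -0.08 and -0.08 (-0.07 to 0.09 over the libraries left out, below 0 without G2 replicate 1, SCR replicate 1 or SCR replicate 3) and TPI1 -0.07 and -0.07 (-0.02 with the library number as a block). In G2/WT, SLC2A8 was 0.07 and 0.00, PFKM 0.04, PGAM1 0.01, PGAM4 0.10 and 0.04, PGD 0.10 and 0.04, and MAX 0.13 and 0.06. Over the libraries left out, PGAM1 ran from -0.38 to 0.01, PGAM4 from -0.24 to 0.08 and SLC2A13 from -0.25 to 0.31, with the change of sign without WT replicate 1 and, for SLC2A13, without G2 replicate 1 (-0.05). Beyond what scaling and fewer samples do by construction, the cause was not tested. Over the libraries left out, 4790 to 5191, 5070 to 6145 and 2851 to 3543 genes were differentially expressed.

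Replicate numbers did not pair the samples: deviations of same-numbered libraries correlated at -0.17 to 0.15, and not every library correlated best with its own number. With the replicate number as a block, 5059, 5644 and 3057 genes were differentially expressed, and 5, 7 and 6 of the 9 genes had an adjusted p of at most 0.05 (6, 7 and 6 without it), LDHA in G2/SCR being lost (adjusted p = 0.097). With the library number as a block, PFKP in SCR/WT (adjusted p = 0.057), HK1 in G2/WT (0.14) and LDHA in G2/SCR (0.17) were lost. In G2/SCR, HK1 and ALDOA passed with edgeR (adjusted p = 0.02 and 0.013), with DESeq2 (0.0072 and 0.0093) and with the 2 lines fitted alone (0.017 and 0.016). Depth did not limit the 9 genes, all far above the floor of 3 fragments, whereas SLC2A3 cannot be told from it. With 2 WT libraries, the comparisons with WT rest on fewer samples.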
